A study of Mus musculus with 18 samples.

Results

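Med24-deficient mouse embryonic stem cells were compared with the same cells carrying Med24 at 2 h after ERK activation, in nascent RNA and across all genes. The comparison uses 6 of the 18 libraries of the series, which were taken by their labels: the KO and WT libraries of clones A, B and C at 2 h of 4-hydroxytamoxifen (4OHT). All cells were E14tg2a, a stem cell line of 129SV background in which Med24 was knocked out. All carried a cRAF-ErT2-T2A-RTTA cassette, whose RAF kinase is held inactive until 4OHT binds the receptor domain fused to it, and whose RTTA is the factor that doxycycline switches on. The WT libraries came from knockout cells rescued with a TET-driven FLAG-Med24 cDNA and kept in doxycycline at 500 nM, and are called rescued here. The KO libraries came from cells kept without doxycycline and are called knockout. Both groups had been in serum and LIF with 250 nM of PD173074, an FGF receptor inhibitor, for 24 h, before which the medium held 2 µM Chir99021, a GSK3 inhibitor. Both received 250 nM 4OHT for 2 h and 5 mM ethynyl uridine for the last 15 min, so that the RNA made in that window could be captured. Doxycycline and Med24 differ together between the groups, and their effects cannot be told apart. The labels do not say whether clones A, B and C were derived separately, and p values measure the spread between samples labelled alike.

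Mediator is a large complex that carries signals from DNA-bound transcription factors to RNA polymerase II, and Med24 is a subunit of its tail, the module that many activators contact. ERK signalling acts on transcription within minutes: its kinases phosphorylate ETS and SRF-partner factors at enhancers and promoters, the immediate early genes are transcribed first, and genes of phosphatases and Sprouty proteins follow and restrain the pathway. In mouse embryonic stem cells the same pathway moves cells out of naive pluripotency and, in the early embryo, separates epiblast from primitive endoderm.

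Levels are given as CPM, the counts of a gene in 1000000 counts after TMM scaling, in the order of clones A, B and C. Med24 stood at 49.2, 43.1 and 47.3 CPM without doxycycline, and the rescued libraries held 1520, 1775 and 1610 CPM. The groups were far apart, with a log2 fold change of -5.14 ± 0.083 (edgeR adjusted p = 4.95e-29). Rescued cells held 548 ± 47 CPM at 0 h, 1635 ± 129 CPM at 2 h and 404 ± 4.0 CPM at 8 h (mean ± SD, n = 3), so that the level stood highest at 2 h.

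The 6 libraries held 8081651 to 9565699 counts, at which 3 counts correspond to 0.329 to 0.458 CPM. In knockout clone A, 13 abundant genes led by Cdk8 took 34.2% of counts, against 18% to 22.2% in the other 5 libraries, and values without that clone are given beside lists whose count or median they move by more than 1.5 times, and beside some others. Stem cell markers (5 of 5 listed) summed to 743 to 864 CPM in knockout and 678 to 718 CPM in rescued libraries. Those of primitive endoderm (7) summed to 34.5 to 45.3 against 17.4 to 26.4 CPM, and those of trophectoderm (4) to 19.2 to 22.7 against 29.4 to 36.7 CPM. Fibroblast markers (7) summed to 6.56 to 7.91 against 7.04 to 8.77 CPM with Postn and Lum at 0 in all 6 libraries, neural markers (4) to 6.26 to 11.5 against 11.1 to 11.4 CPM with Tubb3 at 0, and mesoderm markers (3) to 0.987 to 1.53 against 0.875 to 1.78 CPM. In these bulk samples, fewer cells of a type and less RNA per cell cannot be told apart.

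Of 14128 genes tested, 1530 were higher (10.8%) and 1820 lower (12.9%) in knockout cells at 2 h, or 23.7% in either direction. The lower side held the larger changes: 358 genes were lower and 129 higher by more than 2-fold, and 39 and 24 by more than 4-fold. Many of the 129 were at a low level, with medians of 1.4 CPM in rescued and 3.5 CPM in knockout cells. For the 358 the medians were 12.8 and 4.58 CPM. The 3 knockout values lay above all 3 rescued values in 2631 genes (18.6%) and below them in 2708 (19.2%). Of the called genes 45.7% were higher, but 18.4% with libraries scaled by total count alone, a scaling that moved the median of all genes from 0.00 to -0.09. No gene called in both scalings changed direction. The shares of 10.8% higher and 12.9% lower are the background for each list count at 2 h below.

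**Figure D1:**
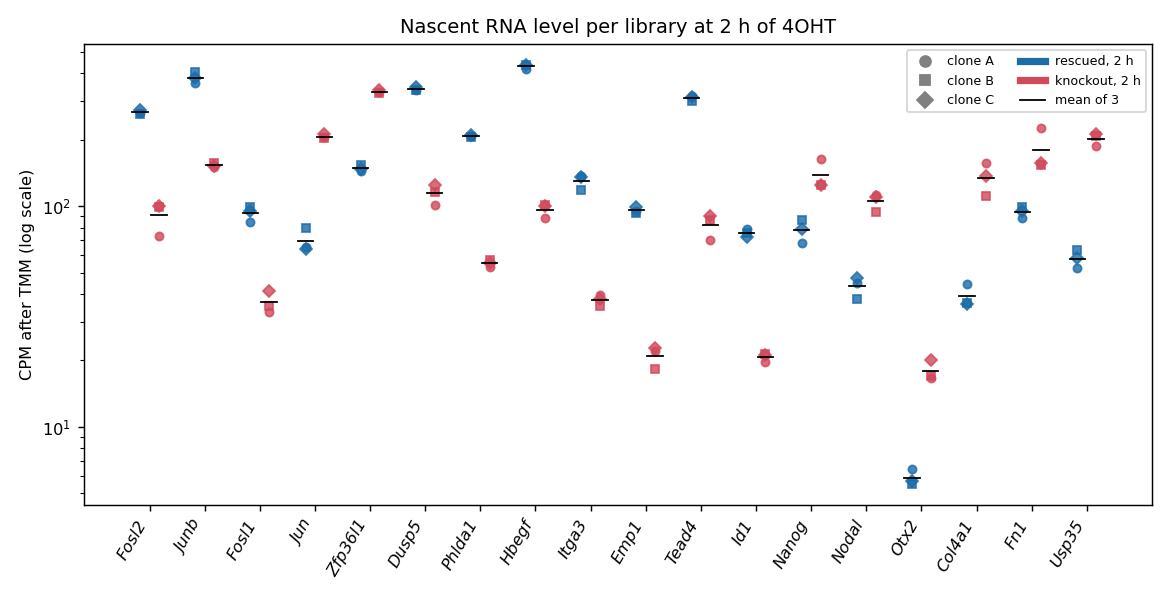
Nascent RNA level (CPM after TMM, log axis) of 18 genes in each 2 h library; blue is rescued, red is knockout, marker shapes are clones and bars are means of 3. In each gene shown the 3 knockout values lie outside the range of the 3 rescued values, above it for Jun, Zfp36l1, Nanog, Nodal, Otx2, Col4a1, Fn1 and Usp35 and below it for the other 10.

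Promoters of 4 genes, chosen after values were seen, are shown. Jun stood higher in knockout cells, and Junb, Dusp5 and Emp1 stood lower. The promoters differ in the regulatory letters they hold, and no tie of these to direction was tested. Each is the 250 bases upstream of the RefSeq transcription start in GRCm38.p6, 5′ to 3′ on the gene's strand. Capitals mark matches to any of 8 motifs searched on both strands. TGANTCA, with any base at N, was the pattern searched for AP-1 sites. The others were TGACGTCA (the CRE), TGACATCA, the CArG box bound by SRF, CCGGAAG (ETS), GGAATG (TEAD), GCGTGGGCG (EGR) and TATAAA. TGACATCA is a variant of the AP-1 site and the CRE that Jun homodimers and Jun-ATF pairs are known to bind. The AP-1, CRE and variant motifs differ at their central letters, so that none of them overlaps another here.
Jun (chr4:95052223-95052472, minus strand): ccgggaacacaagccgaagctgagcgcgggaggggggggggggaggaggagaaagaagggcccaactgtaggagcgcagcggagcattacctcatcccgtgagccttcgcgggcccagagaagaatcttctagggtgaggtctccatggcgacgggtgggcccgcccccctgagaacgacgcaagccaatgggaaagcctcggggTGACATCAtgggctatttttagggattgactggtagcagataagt
Junb (chr8:84978749-84978998, minus strand): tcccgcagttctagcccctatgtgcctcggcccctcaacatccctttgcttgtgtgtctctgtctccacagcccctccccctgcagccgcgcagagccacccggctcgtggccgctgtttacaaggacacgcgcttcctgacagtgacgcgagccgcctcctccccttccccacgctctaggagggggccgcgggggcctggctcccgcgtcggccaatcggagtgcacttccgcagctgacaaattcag
Dusp5 (chr19:53528895-53529144, plus strand): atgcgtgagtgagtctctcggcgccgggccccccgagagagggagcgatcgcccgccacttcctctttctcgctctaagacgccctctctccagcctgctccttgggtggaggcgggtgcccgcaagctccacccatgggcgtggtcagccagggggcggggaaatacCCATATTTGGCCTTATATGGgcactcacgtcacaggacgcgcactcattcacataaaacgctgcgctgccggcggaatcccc
Emp1 (chr6:135362681-135362930, plus strand): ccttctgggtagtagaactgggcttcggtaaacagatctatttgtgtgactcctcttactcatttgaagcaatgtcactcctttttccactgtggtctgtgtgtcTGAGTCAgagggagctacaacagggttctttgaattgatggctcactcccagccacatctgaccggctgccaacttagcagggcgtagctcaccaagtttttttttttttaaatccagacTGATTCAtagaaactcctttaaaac
Jun has TGACATCA at -45 to -38 from its start, a motif found in 3.02% of the 27025 promoters of this length. Dusp5 has 2 adjoining CArG boxes, CCATATTTGG at -82 to -73 and CCTTATATGG at -72 to -63, and 1.4% of promoters have at least 1. Emp1 has 2 AP-1 sites, TGAGTCA at -145 to -139 and TGATTCA at -25 to -19, and TGANTCA occurs in 6.87% of promoters. Junb has none of the 8 motifs in this window. Among the 10790 tested genes with a promoter, the TGACATCA, CArG and TGANTCA motifs occurred in 1.42%, 1.15% and 4.45%. The same motifs occurred in 3.1%, 2.71% and 11.6% of the 258 genes lower by more than 2-fold that had a promoter. For the 89 genes higher by more than 2-fold that had one, the shares were 3.37%, 1.12% and 7.87%. The groups were not compared by a test, and each had promoters for only a part of its genes. These were 72.1% of the genes lower by more than 2-fold, 69.0% of those higher and 76.4% of all tested.

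Immediate early genes stood mostly lower without Med24, and Jun was the largest exception. Of 33 tested, 20 were lower and 3 higher, with a median log2 fold change of -0.53 against 0.00 for all genes (18 lower and 3 higher without knockout clone A). The list's members were chosen with results of these samples known, so the count is no independent evidence of a direction. AP-1 genes, whose proteins pair through leucine zippers to bind AP-1 sites, moved furthest: 5 of 8 were lower and 2 higher, median -1.31.

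Among the FOS partners, Fosl2 was at 73.4, 99.3 and 100.4 CPM in knockout and 264, 262 and 272 CPM in rescued clones A, B and C (log2 fold change -1.54 ± 0.072, edgeR adjusted p = 6.12e-17). Fos was at 53.4, 52.3 and 61.0 against 144, 163 and 151 CPM (-1.46 ± 0.079, edgeR adjusted p = 2.04e-15), and Fosl1 at 33.1, 35.3 and 41.4 against 84.8, 99.2 and 94.9 CPM (-1.33 ± 0.077, edgeR adjusted p = 7.60e-15). In each of the 3 genes every knockout library was below every rescued library, and in Fosl2 clone A was lowest. Fosb was lower by a similar amount (log2 fold change -1.30). Fosl1 overlaps Ccdc85b on the other strand, and without knowledge of the strand setting their reads cannot be told apart.

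The JUN partners split. Junb was at 150.2, 157 and 153 CPM in knockout and 363, 405 and 381 CPM in rescued clones A, B and C (-1.32 ± 0.060, edgeR adjusted p = 3.61e-17). Jun was at 205, 203 and 212 against 65.4, 79.6 and 64.3 CPM (1.57 ± 0.065, edgeR adjusted p = 3.19e-18). The groups did not overlap in either gene, and they lay in opposite orders. Junb adjoins and overlaps Prdx2 on the other strand. The effect on Jun was 0.10 at 0 h, where it did not pass the test, and -1.41 at 8 h, and it differed between 2 h and 0 h by 1.47 (edgeR adjusted p = 6.99e-10) and between 2 h and 8 h by 2.98 (edgeR adjusted p = 4.68e-17). Atf3, a stress-responsive partner of Jun, was higher, at 7.48, 6.97 and 9.75 against 4.78, 4.00 and 4.88 CPM (0.83 ± 0.21, edgeR adjusted p = 0.0034). It was already higher at 0 h (2.43).

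EGR genes, zinc finger factors induced by SRF and ETS factors, were lower by very different amounts. Egr1 was at 2622, 2526 and 2681 CPM in knockout and 3265, 3825 and 3485 CPM in rescued clones A, B and C (-0.43 ± 0.088, edgeR adjusted p = 0.000329). Egr2 was at 9.46, 8.27 and 8.65 against 23.3, 30.1 and 27.9 CPM (-1.63 ± 0.14, edgeR adjusted p = 6.00e-11), and Egr3 at 62.0, 78.2 and 85.6 against 182, 199 and 202 CPM (-1.36 ± 0.086, edgeR adjusted p = 2.58e-13). The groups were separate in all 3 genes. Egr1 moved the least of the 3. Arc, an SRF target in neurons, was lower (-0.93), as were the orphan receptor gene Nr4a1 (-0.76) and the Myc oncogene (-0.76).

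Ier2 (-0.93), Ier5 (-0.96), Klf10 (-0.64) and Klf6 (-0.53) were lower by less than 2-fold. The 10 members that were not called lay between -0.18 (Zfp36) and 0.27 (Jund). Gadd45g, a growth arrest gene, was lower by more (-1.16), having been higher in knockout cells at 0 h (0.42). Zfp36l1, which encodes a protein that destabilizes AU-rich messages, was higher, at 328, 326 and 338 CPM in knockout and 144, 154 and 148 CPM in rescued clones A, B and C (1.15 ± 0.052, edgeR adjusted p = 2.10e-17). Its groups were separate by more than 2-fold, and its effect at 2 h exceeded that at 0 h by 0.51 (edgeR adjusted p = 2.19e-05).

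Of 32 feedback genes of the ERK pathway, 16 were lower and 1 higher, with a median of -0.22 (16 lower and 3 higher without knockout clone A). The dual-specificity phosphatases, which remove phosphate from ERK and its relatives, were lower in 7 of 10 and higher in none, median -0.45. Dusp5, a nuclear ERK phosphatase, was at 102, 116 and 125 CPM in knockout and 336, 338 and 346 CPM in rescued clones A, B and C (-1.57 ± 0.060, edgeR adjusted p = 5.20e-19). Dusp6, the cytoplasmic ERK phosphatase, was at 120, 118 and 122 against 156, 145 and 155 CPM (-0.34 ± 0.061, edgeR adjusted p = 6.09e-05). Neither gene's groups overlapped, but the fall in Dusp6 was far smaller. Dusp2 (-1.67) and Dusp14 (-1.10) moved like Dusp5, and Dusp4 (-0.34) like Dusp6. Dusp4 had been higher in knockout cells at 0 h (0.74), and the change of its effect was -1.09 (edgeR adjusted p = 1.03e-08). Dusp1 was lower (-0.55) and overlaps Ergic1 on the other strand.

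Sprouty, Spred and other membrane inhibitors were lower in 6 of 11 and higher in 1, median -0.21 (6 and 2 without knockout clone A, and 4 and 1 with total-count scaling). Phlda1, a pleckstrin-domain gene induced by ERK, was at 53.1, 57.3 and 55.4 CPM in knockout and 208, 206 and 211 CPM in rescued clones A, B and C (-1.91 ± 0.062, edgeR adjusted p = 1.16e-20). Spry4 was at 772, 813 and 865 against 1518, 1561 and 1532 CPM (-0.91 ± 0.068, edgeR adjusted p = 2.86e-12). All knockout libraries were lower than all rescued ones in both. They differ in history: Phlda1 did not pass the test at 0 h, whereas Spry4 was already lower then (-1.07). Errfi1, an inhibitor of EGF receptors, was lower (-0.58), and the p53-induced Phlda3 was higher (0.58). ETS factors were called lower in 3 of 11, Etv4 (-0.49), Elk3 (-0.43) and Etv6 (-0.26), with a median of -0.04 (3 lower and 1 higher without knockout clone A, median -0.07). Of all genes 12.9% were lower.

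Upstream, the genes of the cascade itself moved little: 3 of 20 were higher and 3 lower, median -0.01 (-0.03 without knockout clone A, and 1 higher and 2 lower with total-count scaling, median -0.11). Of all genes 10.8% were higher and 12.9% lower. Braf (0.39) and the exchange factor genes Sos1 (0.20) and Sos2 (0.51) were higher, and Map2k1 (-0.27), Map2k2 (-0.18) and the scaffold gene Ksr1 (-0.64) lower. Growth factor genes of the EGF family, the ligands and receptors through which ERK-active cells signal to themselves and to neighbours, were lower in 4 of 9 and higher in none, median -0.15 (-0.34 without knockout clone A, 4 lower). Hbegf, a membrane-shed EGF receptor ligand, was at 88.4, 101 and 100 CPM in knockout and 420.4, 437 and 437 CPM in rescued clones A, B and C (-2.16 ± 0.062, edgeR adjusted p = 4.49e-22). Areg, another ligand of that receptor, was near the detection floor at 0.305, 0.591 and 0.329 against 1.26, 1.38 and 1.55 CPM (-1.72 ± 0.47, edgeR adjusted p = 0.0058). Both ligands were lower in every knockout library, and Hbegf was already lower at 0 h (-0.53). Of the FGF family Fgf4, the ligand that stem cells use to drive their own differentiation, was higher at 70.1, 63.3 and 67.8 against 41.9, 43.0 and 45.1 CPM (0.63 ± 0.073, edgeR adjusted p = 5.05e-08), with no overlap between groups.

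**Figure D2:**
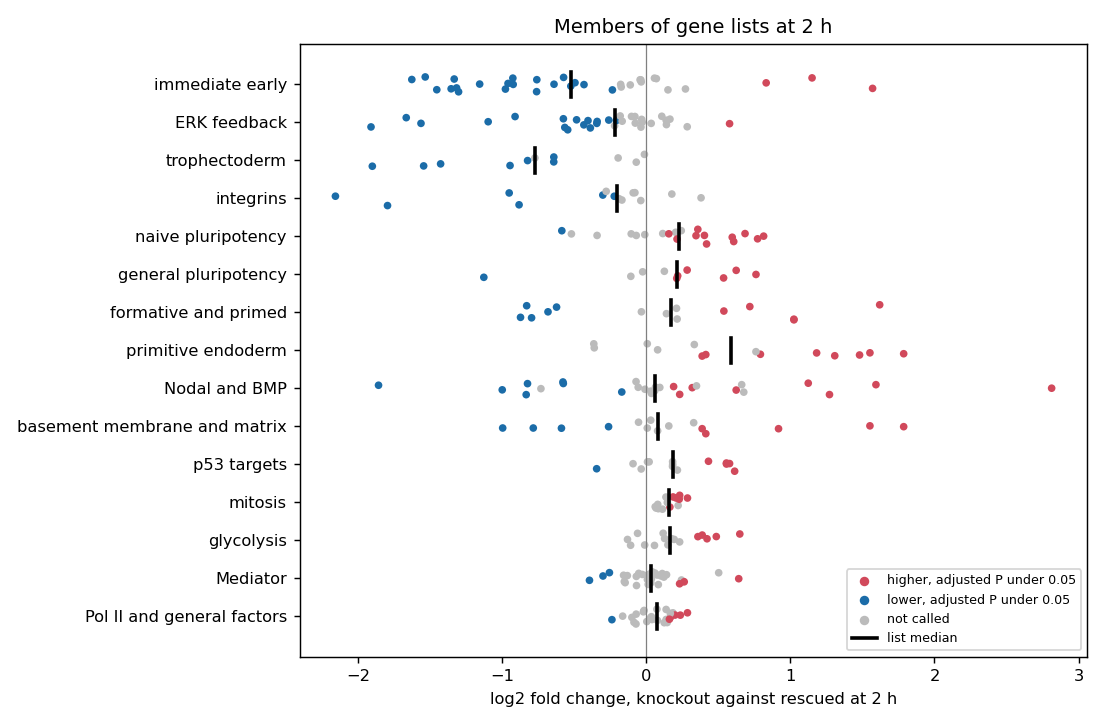
Log2 fold change of knockout against rescued cells at 2 h for the tested members of 15 gene lists; red points were called higher and blue lower at an edgeR adjusted p under 0.05, grey were not called, and black bars are list medians. Immediate early (median -0.53) and trophectoderm (-0.77) genes extend to the left and primitive endoderm genes (0.59) to the right, while Mediator and polymerase genes gather near 0.

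Several genes of adhesion to the matrix and of epithelial membranes were lower by more than 2-fold. Integrins, the receptors that tie cells to matrix proteins, were lower in 6 of 14 and higher in none, median -0.21 (-0.29 without knockout clone A, 6 lower). Itga3, a laminin receptor chain, was at 39.5, 35.4 and 37.8 CPM in knockout and 138, 118 and 136 CPM in rescued clones A, B and C (-1.80 ± 0.093, edgeR adjusted p = 6.22e-16). Itga7, another laminin receptor chain, was at 2.75, 4.72 and 3.18 against 18.6, 15.0 and 14.9 CPM (-2.16 ± 0.20, edgeR adjusted p = 7.12e-10). The groups were separate in both, and neither passed the test at 0 h (-0.03 and 0.35). The fibronectin receptor gene Itga5 (-0.95) and Itgb1, the common beta chain (-0.30), were lower as well.

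Emp1, a gene of a multi-pass membrane protein of epithelia, was at 22.0, 18.2 and 22.7 CPM in knockout and 95.2, 92.7 and 99.2 CPM in rescued clones A, B and C (-2.19 ± 0.082, edgeR adjusted p = 3.85e-19). Its relative Emp3 was at 3.51, 1.65 and 2.96 against 7.42, 13.1 and 11.99 CPM (-2.03 ± 0.27, edgeR adjusted p = 4.48e-07). Gprc5a, a retinoid-inducible receptor gene, was at 73.7, 76.2 and 86.0 against 295, 308 and 337 CPM (-1.99 ± 0.068, edgeR adjusted p = 3.51e-20). No knockout value reached the rescued range in any of the 3. The adhesion receptor gene Adgrg1 (-2.23), the interleukin 6 receptor gene Il6ra (-2.04), the anchoring collagen gene Col7a1 (-1.91), the kinase gene Pak6 (-1.91) and the intermediate filament gene Vim (-1.47) were also lower. Emp1 (-0.61) and Adgrg1 (-0.63) were already lower at 0 h, and Emp3 and Gprc5a did not pass the test then.

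Genes of Rap signalling, a pathway that activates integrins, were lower in 7 of 15 and higher in 1, median -0.12. Of all genes 12.9% were lower and 10.8% higher. The list was already 7 lower and 0 higher at 0 h, median -0.18, where 9.64% of all genes were lower. At 8 h it was 11 lower and 0 higher, median -0.32, where 17.1% of all genes were lower. Activity of the pathway was not measured. Rapgef4, the cAMP-regulated exchange factor EPAC2 (chromosome 2, 71981240 to 72257474), had the largest fall after Med24, at 4.73, 6.02 and 6.46 CPM in knockout and 97.7, 99.1 and 101 CPM in rescued clones A, B and C (-4.09 ± 0.093, edgeR adjusted p = 6.14e-25). It was low at every time, with -2.54 at 0 h and -3.89 at 8 h. The GTPase-activating protein gene Rap1gap2 (-1.69), Sipa1 (-0.94) and Rap2b (-0.61) were lower. Duox1, a hydrogen peroxide-making oxidase gene lower at every time, was at 5.65, 6.02 and 7.89 against 36.7, 34.8 and 35.5 CPM at 2 h (-2.43 ± 0.13, edgeR adjusted p = 7.99e-16). In both genes the groups were widely separate.

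Matrix genes went both ways: 5 of 15 were higher and 4 lower, beside 10.8% and 12.9% of all genes. With total-count scaling 3 were higher and 4 lower, and their median of 0.08 turned to -0.01. Col4a1, a chain of basement membrane collagen, was at 156, 111 and 138 CPM in knockout and 44.6, 36.3 and 36.2 CPM in rescued clones A, B and C (1.79 ± 0.11, edgeR adjusted p = 1.56e-14), and Col4a2, which shares its promoter region and overlaps it, was higher by 1.55. Fn1, fibronectin, was at 226, 154 and 157 against 88.1, 99.5 and 95.1 CPM (0.92 ± 0.094, edgeR adjusted p = 3.86e-09). In both genes all knockout values exceeded the rescued ones and clone A was the highest. The perlecan gene Hspg2 (-0.79), Col18a1 (-0.998) and the nidogen gene Nid1 (-0.59) were lower. Serpinh1, the chaperone gene for collagen folding, was higher (1.33). Col4a1 (0.94), Col4a2 (0.80) and Serpinh1 (1.16) were already higher in knockout cells at 0 h. The effect on Serpinh1 did not differ between 2 h and 0 h (0.16, edgeR adjusted p = 0.715), and those on Col4a1 and Col4a2 were larger at 2 h by 0.85 and 0.76.

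Naive pluripotency genes, whose transcription ERK signalling is known to lower, stood higher in knockout cells at 2 h. Of 20, 11 were higher and 1 lower, median 0.23 (9 and 1 without knockout clone A, and 5 and 1 with total-count scaling, where the median was 0.13). At 0 h the list lay the other way, with 1 higher and 8 lower, median -0.16. Of all genes 6.81% were higher and 9.64% lower then. Nanog was at 163, 125 and 125 CPM in knockout and 67.9, 87.0 and 79.1 CPM in rescued clones A, B and C (0.81 ± 0.082, edgeR adjusted p = 2.55e-09). Klf4 was at 113, 126 and 129 against 72.7, 88.6 and 82.6 CPM (0.60 ± 0.085, edgeR adjusted p = 1.88e-06). The groups did not overlap, and knockout clone A was the highest for Nanog but the lowest of the 3 for Klf4. Klf4 had been lower in knockout cells at 0 h (-0.81), so its effect changed by 1.40 (edgeR adjusted p = 3.26e-10). Fbxo15 (0.68), Klf2 (0.61), Prdm14 (0.77), Tbx3 (0.42) and Esrrb (0.40) were higher, and Klf5, which rose from 0 h to 8 h in rescued cells by 1.42, was lower (-0.59). Tbx3 had been higher at 0 h by a similar amount (0.46).

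Of 10 general pluripotency genes 6 were higher and 1 lower, median 0.21, but 3 and 1 without knockout clone A. The Nodal co-receptor gene Tdgf1 was at 161, 151 and 152 CPM in knockout and 94.0, 99.8 and 107 CPM in rescued clones A, B and C (0.62 ± 0.062, edgeR adjusted p = 1.72e-09). The groups did not overlap. The methylation cofactor gene Dnmt3l was higher (0.76). Sall4 (0.22) and Trim28 (0.28) lost their call when clone A was left out.

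Formative and primed genes, which mark cells after naive pluripotency, split into 5 higher and 5 lower of 14. Otx2, an early factor of this transition, was at 16.6, 17.01 and 20.1 CPM in knockout and 6.41, 5.50 and 5.66 CPM in rescued clones A, B and C (1.62 ± 0.13, edgeR adjusted p = 2.06e-11). Foxd3 was at 17.4, 17.6 and 17.4 against 9.80, 8.76 and 7.32 CPM (1.02 ± 0.14, edgeR adjusted p = 1.47e-06), and Zic2 was higher as well (1.02). The knockout libraries were uniformly above the rescued ones. Pou3f1 (-0.80), Lef1 (-0.87) and the N-cadherin gene Cdh2 (-0.83) were lower. The DNA methyltransferase genes parted, Dnmt3b at 0.72 and Dnmt3a at -0.68. Foxd3 had been lower in knockout cells at 0 h (-0.51), and Otx2 had been higher (0.56).

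Of 14 primitive endoderm genes 8 were higher and none lower, median 0.59 (8 and none without knockout clone A, median 0.45, and 5 and none with total-count scaling). The list was also 8 higher and none lower at 0 h (6.81% of all genes were higher then), with a median of 0.75. Gata6, a factor that specifies this lineage, was at 8.24, 6.14 and 5.81 CPM in knockout and 2.51, 2.00 and 2.55 CPM in rescued clones A, B and C (1.48 ± 0.26, edgeR adjusted p = 4.26e-05). Gata4 was at 13.4, 9.56 and 9.97 against 5.53, 3.75 and 4.99 CPM (1.18 ± 0.17, edgeR adjusted p = 3.34e-06), and Dab2, an endocytic adaptor, at 11.4, 7.08 and 7.45 against 4.27, 3.25 and 2.77 CPM (1.31 ± 0.22, edgeR adjusted p = 2.17e-05). Knockout clone A was the highest library for all 3, and the groups did not overlap. Its larger share of abundant genes moves with these values, and its part in them was not tested. Sox17 could not be placed, with 3.97, 4.96 and 3.83 CPM in knockout and 0.880, 2.25 and 12.7 CPM in rescued clones A, B and C. Rescued clone C stood far above its group, and without it the log2 fold change turned from -0.37 to 1.43.

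Of 11 trophectoderm genes 7 were lower and none higher, median -0.77 (7 without knockout clone A, median -0.67, and 7 with total-count scaling). Tead4, a DNA-binding partner of YAP, was at 70.2, 86.7 and 89.8 CPM in knockout and 315, 300.4 and 313 CPM in rescued clones A, B and C (-1.90 ± 0.065, edgeR adjusted p = 3.43e-20). Krt8, a simple-epithelial keratin, was at 30.5, 19.5 and 20.3 against 46.4, 45.0 and 41.8 CPM (-0.95 ± 0.15, edgeR adjusted p = 6.93e-06). In neither did the groups overlap. Both had been higher in knockout cells at 0 h, Tead4 by 0.48 and Krt8 by 1.16, and the effects changed by -2.38 and -2.11 (edgeR adjusted p = 3.08e-17 and 8.17e-07). Gata2 (-1.43), Gata3 (-0.64), Krt18 (-0.83), Tfap2a (-0.64) and Cdx2 (-1.55) were lower, the last of these at a low level. The targets of YAP and TEAD did not follow as a group: 2 of 15 were higher and 4 lower, median -0.15 (1 and 3 without knockout clone A, and 1 and 2 with total-count scaling). Of all genes 10.8% were higher and 12.9% lower.

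**Figure D3:**
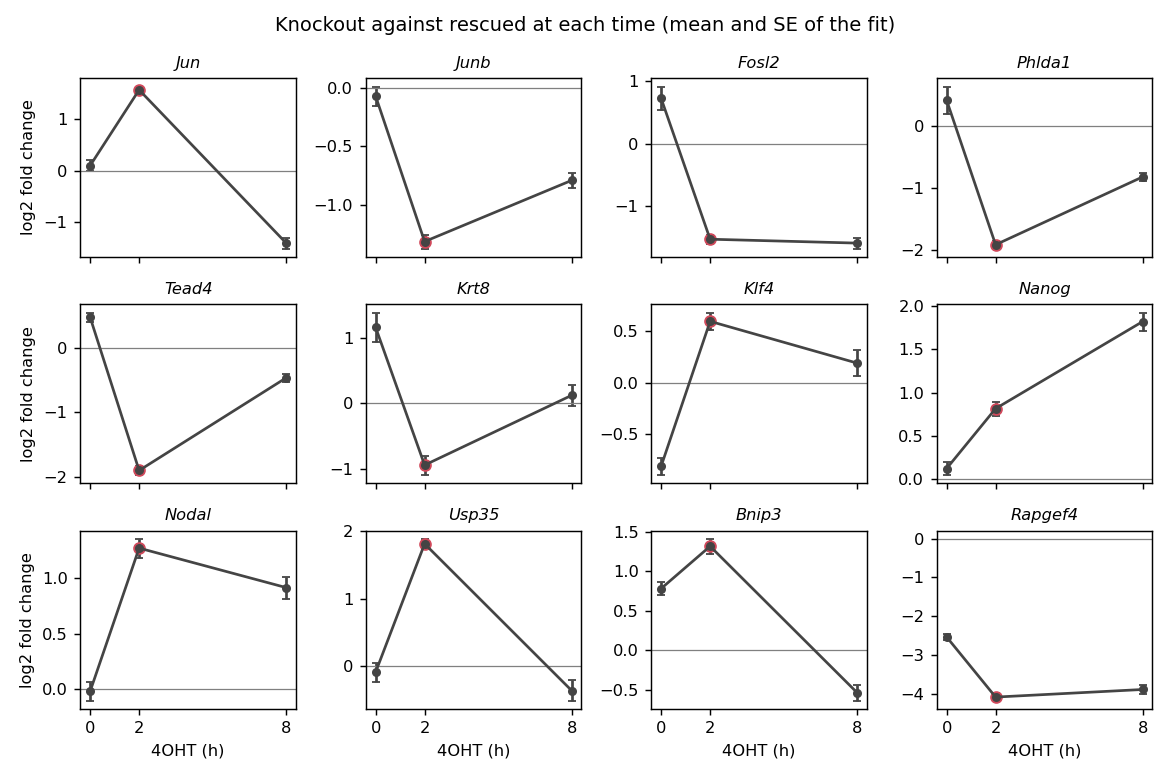
Log2 fold change of knockout against rescued cells at 0, 2 and 8 h of 4OHT for 12 genes, with the SE of the fit. The 2 h value is a red point, and each panel has its own vertical axis. Jun and Usp35 are highest at 2 h, Tead4 and Krt8 turn from above to below 0, and Rapgef4 is below 0 throughout.

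Nodal and BMP genes were 8 higher and 7 lower of 27 (7 and 5 without knockout clone A). With total-count scaling 5 were higher and 6 lower, and the median of 0.06 turned to -0.03. On the Nodal side, the ligand gene Nodal was at 112, 94.2 and 109.8 CPM in knockout and 44.9, 38.2 and 47.5 CPM in rescued clones A, B and C (1.27 ± 0.085, edgeR adjusted p = 2.77e-13). Its feedback inhibitor gene Lefty2 was at 28.7, 13.6 and 12.5 against 6.29, 5.00 and 6.10 CPM (1.59 ± 0.26, edgeR adjusted p = 1.21e-05). Both were higher in every knockout library, and clone A was the highest in each. Reads of Lefty2 may be shared with its near copy Lefty1, which lost its call without clone A. Nodal did not pass the test at 0 h (-0.02). On the BMP side, the target Id1 was at 19.7, 21.4 and 21.1 against 78.8, 75.8 and 72.4 CPM (-1.86 ± 0.081, edgeR adjusted p = 8.34e-18), with no overlap. The ligand gene Bmp4 (-0.58), the inhibitory SMAD genes Smad6 (-0.58) and Smad7 (-0.83) and the target Id2 (-0.84) were lower.

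The genes of the other Mediator subunits moved by small amounts. Of 31 tested, 3 were lower and 4 higher, beside 12.9% and 10.8% of all genes. With total-count scaling 2 were lower and 1 higher, and their median of 0.03 turned to -0.06. In the tail, Med15 was at 90.2, 92.5 and 89.7 CPM in knockout and 117, 112 and 107 CPM in rescued clones A, B and C (-0.30 ± 0.054, edgeR adjusted p = 6.34e-05). In the kinase module, a part that binds reversibly, 3 of 7 were higher and none lower, median 0.24 (1 higher with total-count scaling): Med12l (0.64), Cdk19 (0.26) and Med13 (0.23). The tail subunit gene Med28 (-0.26) and the head subunit gene Med22 (-0.40) were lower, and the middle subunit gene Med19 was at 0.25 with its call lost when clone A was left out. Of 25 RNA polymerase II and general factor genes 5 were higher and 1 lower, but none was called with total-count scaling, where their median turned from 0.07 to -0.02.

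Growth and stress lists moved by small amounts. Of all genes 10.8% were higher and 12.9% lower. Mitotic genes were higher in 6 of 14, led by Ccnb1 (0.28), in 4 without knockout clone A and in none with total-count scaling. Glycolysis genes were higher in 5 of 16 with none lower, among them Tpi1 (0.65) and Ldha (0.42), and p53 targets in 5 of 14 with Cdkn1a lower (-0.35). With total-count scaling 2 glycolysis genes and 3 p53 targets were higher. Bnip3, a hypoxia-induced mitophagy gene, was at 45.5, 49.95 and 46.9 CPM in knockout and 17.6, 19.3 and 20.3 CPM in rescued clones A, B and C (1.31 ± 0.096, edgeR adjusted p = 2.13e-12), with the groups apart. Bnip3 was already higher at 0 h (0.78). Of 19 genes of sterol metabolism 6 were higher, among them Hmgcs1 (0.58) and Insig1 (0.62), and 2 lower. The counts were 7 and 1 without knockout clone A, and 2 and 1 with total-count scaling. Of 81 ribosomal protein genes 6 were higher and 1 lower, beside 10.8% of all genes (1 higher without knockout clone A), with a median of 0.07 that turned to -0.02 with total-count scaling.

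Several strong rises belong to no list. Usp35, a deubiquitinase gene (chromosome 7, 97309380 to 97332020), was at 188, 208 and 212 CPM in knockout and 52.4, 63.2 and 58.1 CPM in rescued clones A, B and C (1.81 ± 0.076, edgeR adjusted p = 4.09e-18). Sec14l5, a lipid-transfer family gene, was at 60.9, 67.2 and 67.0 against 12.4, 13.4 and 14.8 CPM (2.26 ± 0.096, edgeR adjusted p = 4.42e-18), and Irak2, a kinase gene of interleukin 1 signalling, at 60.3, 64.6 and 65.1 against 21.4, 25.8 and 20.3 CPM (2.83-fold, edgeR adjusted p = 6.18e-14). All were separate by group. Usp35 and Sec14l5 did not pass the test at 0 h or 8 h. Among 2-cell-like genes, near-identical copies whose reads may be divided, Zscan4d had 74 counts in the 3 knockout and 4 in the 3 rescued libraries. Its difference was not particular to 2 h, with 29 against 1 counts at 0 h and 31 against 4 at 8 h.

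The difference at 2 h was then set beside that before 4OHT and at 8 h, comparisons made on other libraries. The contrast in Med24 itself was unequal, with log2 fold changes of -3.81 at 0 h, -5.14 at 2 h and -3.35 at 8 h. Its part in what follows was not tested. Of genes higher at 2 h, 311 were also higher at 0 h (20.3% of the 2 h list and 32.3% of the 0 h list of 962 genes). Of genes lower at 2 h, 451 were also lower at 0 h (24.8% and 33.1% of 1362, where 9.64% of all genes were called lower). More was shared with 8 h, where 2049 genes were higher (14.5%) and 2421 lower (17.1%): 754 were higher at both times (49.3% of the 2 h list and 36.8% of the 8 h list) and 1086 lower (59.7% and 44.9%). Tested directly, the effect at 2 h was above that at 0 h in 933 genes (6.6%) and below it in 933 (6.6%), of which 58 and 269 by more than 2-fold. It was above the effect at 8 h in 652 genes (4.61%) and below it in 619 (4.38%). Of the immediate early genes 17 of 33 had an effect at 2 h below that at 0 h and 3 above, Jun, Zfp36l1 and Egr1, the last of which was lower in knockout cells at both times.

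Genes that rescued cells raised by 8 h of 4OHT were called lower at a higher share than the other classes, a description with no test. Of 1164 genes that rose more than 2-fold from 0 h to 8 h in rescued cells, 571 were lower in knockout cells at 2 h (49.1%) and 41 higher (3.52%), with a median log2 fold change of -0.45. Of 1343 genes that fell more than 2-fold by 8 h, 93 were lower (6.92%) and 221 higher (16.5%), median 0.10. Of 5380 genes not called between 0 h and 8 h, 378 were lower (7.03%) and 457 higher (8.49%), median 0.00. The classes rest on libraries that the 2 h comparison does not use. Jun, Zfp36l1 and Atf3 were the 3 immediate early genes higher at 2 h, and they rose in rescued cells by 0.97, 1.71 and 0.84 from 0 h to 8 h.

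**Figure D4:**
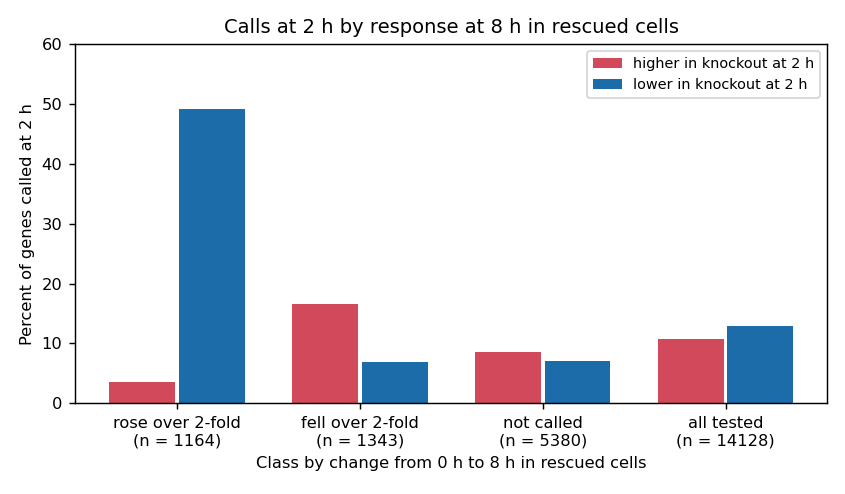
Percent of genes called higher (red) or lower (blue) in knockout cells at 2 h, for genes grouped by their change from 0 h to 8 h in rescued cells and for all genes tested; the vertical axis starts at 0. Among genes that rose, 49.1% were lower at 2 h, against 12.9% of all genes.

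Called genes differed in span from the rest, a description with no test. The median genomic span was 39.3 kb for genes higher, 31.3 kb for genes lower and 23.7 kb for genes not called, but 19.7 and 23.1 kb for those higher and lower by more than 2-fold. They also held more reads, with median levels in rescued cells of 62.9, 38.2 and 16.5 CPM for genes higher, lower and not called, and the part of depth in these shares was not tested. On the autosomes the median log2 fold change lay between -0.04 and 0.04, and on the X it was 0.11 over 460 genes.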

How the data were processed

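Nascent RNA was measured in 18 libraries, of which the 6 at 2 h of 4OHT are described. The deposited table held whole-number counts per gene for 25897 symbols, and these counts were used as the authors deposited them. Per the submitters' processing notes, STAR, featureCounts, DESeq and mm10 were used. The sources used here give no tool versions, annotation release, strand setting or use of introns. GENCODE M21 held 98.7% of the symbols and gave positions; promoters came from RefSeq on GRCm38.p6.

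Groups were taken from the sample titles. Genes were kept with filterByExpr, scaled by TMM and fitted with edgeR 4.0.16 (R 4.3.3) in a quasi-likelihood model of 6 group means over all 18 libraries, with Benjamini-Hochberg adjustment over 14128 genes at 0.05. Log2 fold changes are knockout against rescued, ± SE. CPM values carry TMM scaling. The effect at 2 h was also tested against the effects at 0 h and 8 h by interaction contrasts. No spike-in is named in the labels, so each difference is set against the remaining genes measured in the same library. Replicate pairs at 2 h differed by more than sampling noise. Chi-square per degree of freedom was 24.8 and 43.2 for the pairs with knockout clone A and 2.76 to 4.85 for the rest. The 6 libraries held 8081651 to 9565699 counts, so that 3 counts, the limit that a count of 0 allows, came to 0.329 to 0.458 CPM, covering counting error only.

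The groups, gene lists (33) and named genes were chosen with earlier results of these data known. Named were Med24, the 20 highest and 20 lowest log2 fold changes among genes called, without overlap and of at least 5 CPM (predicted gene models were passed over), up to 6 members of each list by smallest p, the members of 9 lists, and the 10 highest and 10 lowest differences between the effects at 2 h and 0 h. Promoters, neighbouring genes and classes by 8 h response were chosen after values were seen, as were the genes named outside this rule. The fit was tested on simulated data with known changes. Alternatives were other scalings, no filter, the 2 h libraries alone, a replicate block, each library left out, DESeq2 1.42.0 and, added after seeing the data, a fit without the 3 libraries in which 13 abundant genes (mean above 1000 CPM, correlated with Cdk8 above 0.9) held 34.2% to 43.9% of counts. Some members of the lists are not reported here by name.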

Additional observations from a re-analysis of the deposited data

Results flagged for a closer look

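The effect of Med24 loss at 2 h differed from that at another time in the named genes below, each at an adjusted p under 0.05 in edgeR's test of the difference itself. Values are differences of log2 fold changes (knockout against rescued). Of 45 differences, 33 are against 0 h and 12 against 8 h. Those against 0 h are the 10 highest, the 10 lowest and 13 more with opposite calls at the 2 times. Those against 8 h are opposite calls only, so the split follows the rule. Other named genes also differed and are not listed, such as Gprc5a (-1.88) and Hbegf (-1.63) against 0 h and Usp35 (2.16) against 8 h.

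Above the effect at 0 h were Sec14l5 (2.78), Hhip (2.26), Syt2 (2.15), Usp35 (1.89), Nptx1 (1.84), Phlda2 (1.55), Foxd3 (1.53), Jun (1.47), Duox1 (1.47), Cxxc4 (1.47), Klf4 (1.40), Prdm14 (1.11), Nr5a2 (0.77), Lifr (0.60), Tfcp2l1 (0.52) and Sos1 (0.52). For Duox1 this was a smaller deficit at 2 h (-2.43) than at 0 h (-3.90), and Phlda2, lower at 0 h (-1.58), was not called at 2 h (-0.03). Hhip, an inhibitor gene of Hedgehog signalling, turned from -1.60 at 0 h to 0.65 at 2 h. The difference in Cxxc4 lost its call without knockout clone A.

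Below the effect at 0 h were Crym (-2.52), Itga7 (-2.51), Gsg1 (-2.42), Gpr142 (-2.39), Tead4 (-2.38), Phlda1 (-2.33), Fosl2 (-2.27), Pak6 (-2.25), Oaf (-2.22), Il6ra (-2.19), Krt8 (-2.11), Krt18 (-1.99), Gadd45g (-1.58), Dusp4 (-1.09), Dusp1 (-0.88), Erbb3 (-0.77) and Zyx (-0.72). Gpr142 and Gsg1 rest on 5 and 4 counts in the rescued and 9 and 10 counts in the knockout libraries at 0 h.

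Opposite calls at 2 h and 8 h gave differences of 2.98 for Jun, 1.85 for Bnip3, 0.96 for Insig1, 0.80 for Sos2, 0.72 for Pfkl, 0.51 for Cdk6 and 0.33 for Taf4, all higher at 2 h and lower at 8 h. Erbb3 (-1.36), Ctgf (-1.02), Tagln2 (-0.95), Dusp16 (-0.83) and Aff1 (-0.61) were lower at 2 h and higher at 8 h. The 2 h call of Ctgf was lost without knockout clone A (-0.15). In 2 of the 3 knockout libraries at 8 h, clones B and C, the 13 abundant genes held 36.4% and 43.9% of counts, and the part of this in the differences from 8 h was not tested.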

How the results depend on the processing

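At 2 h the scalings RLE and TMM without the abundant genes, no filter, the 2 h libraries alone and DESeq2 gave 1412 to 1698 genes higher and 1456 to 1876 lower. With library size alone 305 were higher and 1356 lower. No gene called at 2 h both in the fit reported and in one of the alternatives run had opposite directions in them. Library size alone also gave 213 higher and 207 lower at 0 h, 356 higher and 3999 lower at 8 h, 57 above and 532 below 0 for the effect at 2 h minus 0 h, and 292 above and 79 below for 2 h minus 8 h. DESeq2 called 613 genes higher at 0 h. Leaving out a 2 h library gave 1114 to 1327 genes higher and 1549 to 1634 lower. It gave 670 to 995 above and 748 to 937 below 0 for 2 h minus 0 h, and 499 to 592 and 505 to 589 for 2 h minus 8 h. Without the 3 libraries of high abundant-gene share 1624 were higher and 1667 lower. Sox17, not called, ranged from -0.85 to 1.43 when a 2 h library was left out, the sign turning without rescued clone C. Same-letter libraries at 2 h had correlated deviations of 0.042, 0.0188 and 0.0353, all under 0.1, with 5 of the 6 libraries correlating best with their own letter, a hint from the data and not the design, and no label says that a letter marks a shared batch or day, so the letters were not taken to pair libraries. With the clone letter as a replicate block 1532 genes were higher and 1815 lower, and 1613 and 1838 with the 2 h libraries alone. Among single genes, library size alone took 73 results below the threshold, and leaving out 1 library took 15 (rescued clone A) to 29 (rescued clone C), with 23 for knockout clone A. At a floor of 0.329 to 0.458 CPM, changes in genes of lower level were not detectable at this depth.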

Other observations

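Some of the changed genes follow one another in the order of tested genes along a chromosome. A run was at least 3 consecutive tested genes called in the same direction with an absolute log2 fold change above 0.8. This rule was set after values were seen. It gave 10 runs with 32 genes, 8 of them lower and 2 higher in knockout cells. By more than 2-fold 358 genes were lower and 129 higher, and the number of runs to expect from such shares was not estimated. A higher run on chromosome 12 held the predicted genes Gm8300, Gm5662 and Gm5039. They averaged 1.28, 1.52 and 2.11 CPM in knockout libraries and 0.0787, 0.162 and 0.153 CPM in rescued ones. Gm8300 ends at 87518266 and Gm5662 starts at 88270640, so these do not adjoin. Without knowledge of the strand setting, reads of neighbours that overlap cannot be told apart. The longest run, on chromosome 11, held 5 genes: Dnaic2 (-1.08), Kif19a (-2.12), Btbd17 (-1.97), Gpr142 (-1.77) and Gprc5c (-0.87). Kif19a, a cilium kinesin gene, averaged 2.65 ± 0.98 CPM without Med24 and 11.4 ± 0.29 CPM with it, and Btbd17 averaged 7.22 ± 0.75 against 28.3 ± 3.3 CPM (mean ± SD, n = 3).

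On chromosome 7 the run of Gab2, a docking protein gene that feeds receptor signals to ERK (1.35), Usp35 (1.81) and Kctd21 (1.23) was higher in knockout cells at 2 h, and none of the 3 was called at 0 h or 8 h. Gab2 averaged 32.4 ± 1.7 CPM without Med24 and 12.7 ± 1.1 CPM with it. The same chromosome held the epidermal secreted-protein genes Sbsn (-1.44), Dmkn (-1.36) and Krtdap (-1.71), and the run of B4galnt4 (-1.28), the desmosomal plakophilin gene Pkp3 (-1.69) and the interleukin receptor-like gene Sigirr (-1.60). On chromosome 3 the S100 family genes S100a10 (-1.28) and S100a11 (-0.87) lay beside Tchh, and on chromosome 7 the urokinase receptor gene Plaur (-1.23), at 328 ± 37 against 769 ± 27 CPM, lay between Irgc1 (-1.92) and Cadm4 (-1.27).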
